A study of Mus musculus with 2 samples.

Results

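The barcodes described here were the shallow ones of each epidermal library with a high share in 13 consecutive matrix rows. Those rows, a candidate block of mitochondrial transcripts, took more than 10% of the unique molecular identifiers (UMIs, each standing for 1 captured RNA molecule). Whether each barcode was an intact cell was not established. The study applied its own quality filter, and which of these barcodes it kept is not known here. The block lies near the end of the matrix, and the block percent is its UMIs over all UMIs of a barcode, taken for barcodes with at least 500 detected rows. Block-rich barcodes had over 10% and reference barcodes 1 to 5%, and both sets were held to 1000 to 4000 UMIs. This left 790 block-rich and 206 reference barcodes in control and 1149 block-rich and 636 reference barcodes in *Supt6*-KO. The 1939 block-rich barcodes came from 2263 at all depths, 20546 barcodes with at least 500 detected rows and 22056 barcodes in all. Members were chosen by their measured block percent, so the values of the block itself are a description.

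The libraries were droplet-based scRNA-Seq of dorsal mouse epidermis, separated from the dermis and dissociated with trypsin. The control was labelled wild type and given corn oil, and the study's methods describe its control mice as carrying the floxed *Supt6* alleles. The *Supt6*-KO library, labelled a *Supt6* knockdown, was from a K14-CreERT; *Supt6* fl/fl mouse given tamoxifen. Both libraries were collected on day 5 after the final injection. K14 drives Cre in basal keratinocytes, and the study reported lower *Supt6* in suprabasal and dividing keratinocytes as well. Cell types of the epidermis other than keratinocytes need not have lost the gene. Genotype, compound, mouse and library changed together and cannot be told apart. With 1 library per group there was no replicate check, and cells of 1 library are not replicates. The control held 9085 barcodes and 104386982 UMIs, and *Supt6*-KO held 12971 barcodes and 116573347 UMIs. The libraries shared 23 barcode sequences, of which 3 were block-rich in the control window and 0 in the *Supt6*-KO window. The matrix rows carry no gene names here, so rows are given by number, *Supt6* itself and the markers of keratinocytes were not analysed here, and clusters were left unnamed.

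As background, mitochondria carry a small genome of their own, whose transcripts encode subunits of the respiratory chain and are polyadenylated, so that poly(A) capture recovers them. Their share of a cell's UMIs is widely used as a measure of cell quality in dissociated tissue, because cytoplasmic RNA can leak from a damaged cell while transcripts enclosed in mitochondria stay behind. The share also differs between healthy cell types with different energy demands, so a high share does not by itself mark damage. That the 13 rows are mitochondrial was not established from the files.

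Among barcodes with at least 500 detected rows, a high block percent was most frequent at 1000 to 2000 UMIs in both libraries. That minimum left out 368 control barcodes (median 632.5 UMIs) and 1142 of *Supt6*-KO (median 667 UMIs), of which 86.4 and 85.6% exceeded 10%. Over all barcodes with at least 500 detected rows, the median block percent was 3.04% for control, with quartiles of 2.32 and 4.55%, and 3.15% for *Supt6*-KO, with quartiles of 1.82 and 5.03%. Block-rich barcodes at all depths made up 10.6% of control barcodes (95% exact binomial interval 10.0 to 11.3) and 11.3% of *Supt6*-KO barcodes (10.7 to 11.9). These and all later intervals cover counting error only. In control, block-rich barcodes were 75.2% of those at 1000 to 2000 UMIs, 46.6% at 2000 to 4000, 5.81% at 4000 to 8000 and 0.184% at 8000 to 16000. In *Supt6*-KO the same depths gave 60.6, 36.3, 3.32 and 0.316%. Under 1000 UMIs the share was 59.5% of 74 barcodes in control (47.4 to 70.7) and 48.4% of 157 in *Supt6*-KO (40.4 to 56.5). The window of 1000 to 4000 UMIs therefore held 85.1% of the block-rich barcodes in control and 86.1% in *Supt6*-KO. It held only 3.14% and 8.65% of the 1 to 5% barcodes. Within the window, block-rich barcodes were 56.8% of control (54.1 to 59.4) and 46.5% of *Supt6*-KO (44.5 to 48.5), and reference barcodes were 14.8% and 25.7%.

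**Figure D1:**
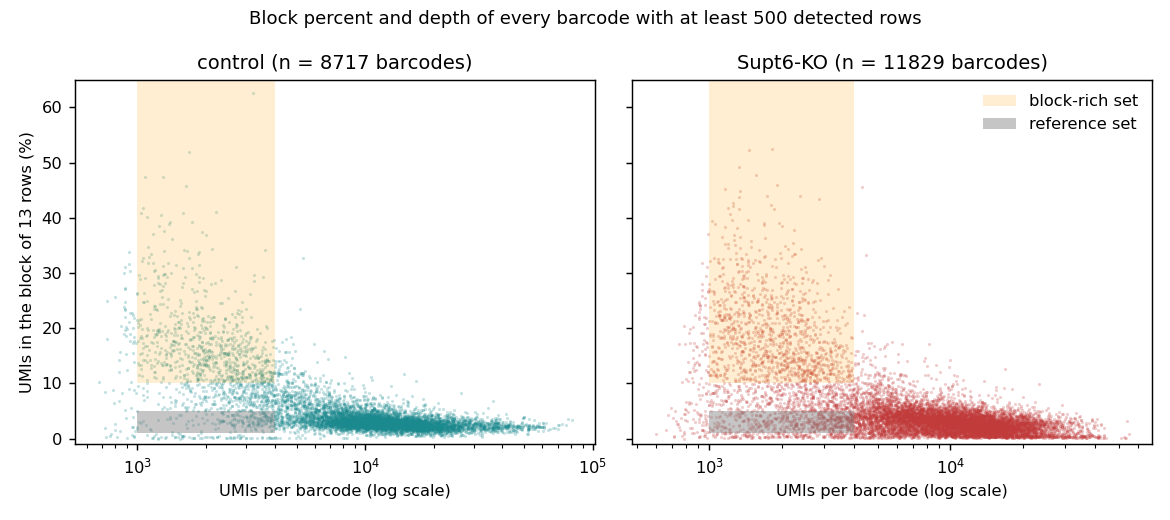
Block percent (vertical axis) against total UMIs per barcode (horizontal log axis), in control and *Supt6*-KO, with 1 point per barcode and the ranges of both sets shaded. Block-rich barcodes crowd into the shallow end in both libraries, at 75.2% of control and 60.6% of *Supt6*-KO barcodes of 1000 to 2000 UMIs.

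The threshold cut through a continuous range. In the control window, 73 barcodes lay just outside it at 9 to 10% (median 2828 UMIs) and 92 just inside it at 10 to 11% (median 2661 UMIs). In *Supt6*-KO the numbers were 88 (2325 UMIs) and 77 (2414 UMIs). The median block percent was 15.6% in control block-rich barcodes (quartiles 12.4 and 19.6) against 3.33% in the reference. In *Supt6*-KO it was 17.4% (13.3 and 22.8) against 3.02%. All 13 block rows took a larger part of the UMIs in the block-rich set, by 4.34- to 7.60-fold in control and 3.84- to 9.52-fold in *Supt6*-KO. The members were still shallower than the reference inside the window, with a median of 2075 against 3106.5 UMIs in control and 1887 against 2730.5 in *Supt6*-KO.

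Outside the block, the remaining RNA of block-rich barcodes differed widely from the reference in both libraries. Values are CPM, the UMIs of a row scaled to a total of 1000000, from the summed UMIs without the block, and a row was called at 20 CPM or more in the higher set and a difference of at least 2-fold. In control, 1688 of 7562 rows tested were higher in block-rich barcodes (22.3%) and 1642 were lower (21.7%). In *Supt6*-KO, 1531 of 6770 rows were higher (22.6%) and 692 were lower (10.2%). The median log2 ratio over all rows tested, on the log2(CPM + 1) scale, was 0.17 in control and 0.35 in *Supt6*-KO. The *Supt6*-KO split depended on the scaling: 68.9% of its calls were higher ones, whereas with TMM factors 834 rows were higher and 1138 lower, so that 42.3% were. The control reference was small, with 586698 UMIs outside the block, so that 20 CPM stood for 11.7 UMIs there, against 29.2 in control block-rich barcodes and 37.8 and 32.6 in the *Supt6*-KO sets.

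Of the rows tested, 2571 in control and 2620 in *Supt6*-KO were retained within 1.5-fold of the reference. Differences of at least 16-fold were found for 29 higher and 279 lower rows in control and for 2 higher and 27 lower rows in *Supt6*-KO. Of the rows at 20 CPM or more in the reference, 89 had no UMI in the control block-rich set and 8 had none in the *Supt6*-KO block-rich set. In the other direction, 12 control rows and 0 *Supt6*-KO rows at 20 CPM or more in block-rich barcodes had no UMI in the reference. A count of 0 in a set still allows up to 3 UMIs of its summed total. For control, that limit was 2.05 CPM of the block-rich set and 5.11 CPM of the reference. For *Supt6*-KO, the limits were 1.59 CPM of the block-rich set and 1.84 CPM of the reference. The called rows carried much of the RNA. Rows called higher took 35.6% of the UMIs of control block-rich barcodes against 11.6% of the reference, and 30.8% against 12.04% in *Supt6*-KO. Rows called lower took 12.1% against 39.9% in control and 11.6% against 27.7% in *Supt6*-KO.

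The share of rows called lower was highest among the most abundant rows. Of 180 control rows at 1000 CPM or more in the higher set, 36 were called higher and 99 lower in block-rich barcodes, with a median log2 ratio of -1.11. Of 170 such rows in *Supt6*-KO, 27 were higher and 80 lower, with a median of -0.95. At 200 to 1000 CPM the balance was the other way round. There 439 of 1340 control rows were higher and 262 lower, and 393 of 1051 *Supt6*-KO rows were higher and 118 lower, with median log2 ratios of 0.59 and 0.69. Of the 133 rows that reached 1000 CPM in both libraries, 66 were lower in both, 15 were higher in both and 0 were called in opposite directions. The 100 most abundant rows accordingly took 17.7% of the UMIs in control block-rich barcodes against 23.7% in the reference, and 23.6% against 33.6% in *Supt6*-KO. For the 10 most abundant rows the sets lay close, at 6.12% against 6.23% in control and 9.85% against 9.92% in *Supt6*-KO.

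Both libraries gave the same direction for most called rows, and the lists themselves overlapped in part. Of 6316 rows tested in both, 809 were higher in block-rich barcodes of both libraries (12.8%) and 439 were lower in both (6.95%). This balance depended on the scaling, since TMM factors gave 472 higher and 660 lower in both. The shared higher rows were 47.9% of the control list and 52.8% of the *Supt6*-KO list. Of all rows tested in control, 18.9% were called higher in *Supt6*-KO, and of all tested in *Supt6*-KO, 21.7% were called higher in control. The shared lower rows were 26.7% of the control list and 63.4% of the *Supt6*-KO list, where the same background shares were 7.99 and 15.1%. Opposite calls were few, at 25 rows in total. Rows called higher in control had the same sign in *Supt6*-KO in 94.5% of cases, with a median log2 ratio of 1.00 there, and rows called lower in 82.3%, with a median of -0.81. For comparison, all rows tested in control had a median of 0.28 in *Supt6*-KO. Across the 6316 rows, which are not independent replicates, the log2 ratios of the libraries had a Pearson correlation of 0.726.

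**Figure D2:**
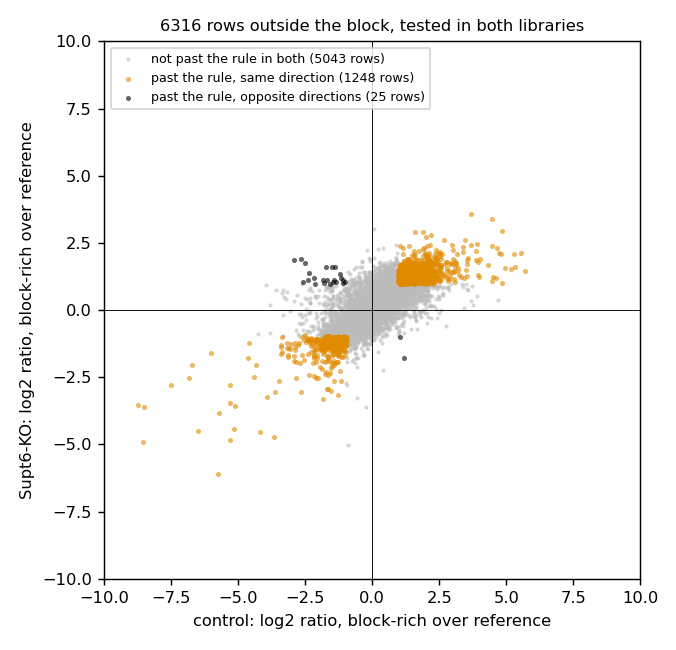
Log2 ratio of CPM + 1, block-rich over reference, in control (horizontal axis) and *Supt6*-KO (vertical axis), 1 point per row tested in both libraries. The 809 rows higher in both and the 439 lower in both sit in the upper right and lower left, and 25 rows were called in opposite directions.

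The called rows shifted step by step with the block percent up to the bin of 10 to 20%. Rows called in 1 library were followed over bins of block percent in the other, whose own values had not chosen them. In control barcodes of 1000 to 4000 UMIs, the 1531 rows called higher in *Supt6*-KO took 15.8% of the UMIs outside the block at 1 to 5% block, 25.8% at 5 to 10%, 36.3% at 10 to 20% and 36.2% at 20 to 40%. The 692 rows called lower took 25.003, 16.7, 8.40 and 8.58%. The bin of 5 to 10%, used by neither set, lay between the sets for both lists.

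In *Supt6*-KO barcodes, the 1688 rows called higher in control took 12.4, 18.4, 26.7 and 28.3% over the same bins, and the 1642 called lower took 36.2, 29.1, 18.3 and 16.2%. Barcodes under 1% block, also outside the rule, lay beyond the reference in these pooled shares. The higher list took 5.01% of their UMIs in control and 6.56% in *Supt6*-KO, and the lower list 32.8 and 42.1%. The single rows of the lower list did not all follow. Their median log2 ratio to the reference was -0.20 in *Supt6*-KO, beside -0.68 over all rows tested. In control it was 0.22, beside -0.80. Above 40% the order broke, on 11 control and 18 *Supt6*-KO barcodes: the higher lists fell back to 28.8% in control and 24.3% in *Supt6*-KO.

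**Figure D3:**
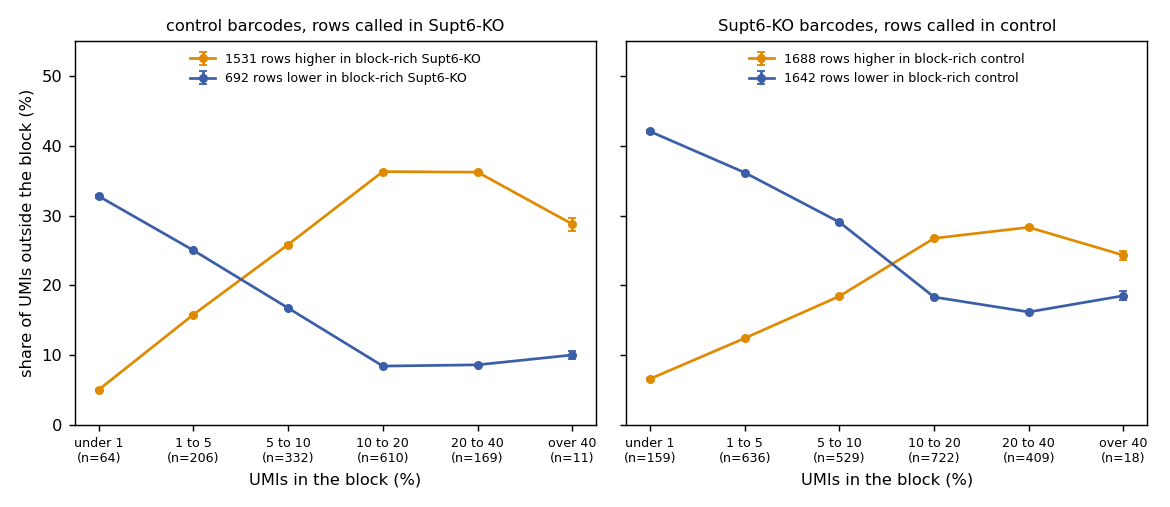
Percent of UMIs outside the block (vertical axis) taken by rows called higher or lower in the other library, over bins of block percent (horizontal axis), at 1000 to 4000 UMIs. Error bars are exact 95% binomial intervals. In control the higher list goes from 15.8% at 1 to 5% block to 36.3% at 10 to 20%, and the lower list from 25.003 to 8.40%.

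At equal depth, block-rich barcodes held slightly more different rows than the reference. Each barcode was thinned to 500 UMIs outside the block, and no barcode was left out. The median number of detected rows was then 410 in control block-rich barcodes (quartiles 397 and 421) against 387 in the reference (367.25 and 406.75). In *Supt6*-KO it was 397 (381 and 410) against 363 (335 and 387). With the rows of 1000 CPM or more taken out before thinning, the ratios of 1.06 and 1.09 were 1.02 and 1.01. That left out 4 control and 33 *Supt6*-KO block-rich barcodes, and 0 and 4 reference barcodes. Without thinning the order was reversed, at 1115.5 against 1484.5 rows in control and 961 against 1239.5 in *Supt6*-KO, the block-rich barcodes being the shallower ones.

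The same row was the most abundant outside the block in both block-rich sets. It lay 34 rows before the block and was chosen after its values were seen. It took 51534 UMIs in control block-rich barcodes, or 3.53% (3.50 to 3.56), against 0.896% in the reference. In *Supt6*-KO it took 51051 UMIs, or 2.70%, against 0.958%. It peaked below the highest block percents. Over the bins of 1 to 5, 5 to 10, 10 to 20, 20 to 40 and over 40% it took 0.896, 1.94, 3.62, 3.11 and 1.75% in control and 0.958, 1.80, 2.69, 2.77 and 1.44% in *Supt6*-KO. Of the 50 rows before the block, 17 were tested in control, with 6 higher and 3 lower, and 15 in *Supt6*-KO, with 8 higher and 1 lower. Their median log2 ratios were 0.92 and 1.03, beside 0.17 and 0.35 over all rows, of which 22.3% were higher and 21.7% lower in control and 22.6 and 10.2% in *Supt6*-KO. These 50 rows include the most abundant row. Without it, 5 of 16 rows were higher and 3 lower in control, and 7 of 14 higher and 1 lower in *Supt6*-KO. Elsewhere in the matrix, 2 further windows of neighbouring rows were fixed by position. In the shorter window, 10 of its 24 control rows were lower and 1 higher in block-rich barcodes. In *Supt6*-KO 4 of its 22 rows were lower and 0 higher, and the median log2 ratios were -0.77 and -0.50. In the longer window, 12 of 52 control rows were higher and 13 lower, and 14 of 49 *Supt6*-KO rows were higher and 6 lower, with medians of 0.062 and 0.30.

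At 100 CPM or more, 456 of the 2180 rows tested in both libraries were higher in both and 206 were lower in both. Among them, R33771 and R21934 were the higher rows with the largest ratio in the library where it was smaller. R02281 and R27208 were the lower rows chosen the same way. In control, R33771 had 239 UMIs and 164 CPM (exact Poisson interval 143 to 186) in block-rich barcodes against 7 UMIs and 11.9 CPM (4.80 to 24.6) in the reference, a 13.7-fold difference (exact conditional interval 6.55 to 34.5). In *Supt6*-KO it had 250.2 CPM (228 to 274) against 20.3 (13.9 to 28.5), or 12.4-fold (8.67 to 18.2).

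R21934 stood at 224 CPM (200.2 to 249) against 6.82 (1.86 to 17.5) in control, or 32.8-fold (12.7 to 121) on 4 reference UMIs. In *Supt6*-KO the values were 140.2 (124 to 158) and 17.2 (11.4 to 24.8), or 8.16-fold (5.51 to 12.5). Both higher rows were already above the reference in the bin of 5 to 10%, at 42.0 and 51.0 CPM for R33771 and 58.3 and 38.8 CPM for R21934, in control and *Supt6*-KO. Against the reference of all depths weighted to the clusters of the block-rich barcodes, the log2 ratios were 1.90 and 2.03 for R33771 and 1.99 and 2.64 for R21934. The 2 clusters with the highest CPM of R33771 held 46.5% of its UMIs in control and 16.3% in *Supt6*-KO. These clusters held 59.4% of the block-rich and 4.85% of the reference set in control, and 65.3 and 7.86% in *Supt6*-KO. Outside them R33771 had 39.7 against 8.98 CPM in control (23 and 5 UMIs) and 139.6 against 19.0 CPM in *Supt6*-KO (95 and 29 UMIs).

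R02281 had the larger difference of the lower rows given by number. In control it had 20 UMIs and 13.7 CPM (8.36 to 21.1) in block-rich barcodes against 461 UMIs and 786 CPM (716 to 861), 57.4-fold lower (36.7 to 94.9). In *Supt6*-KO it had 1 UMI, or 0.529 CPM, against 170 UMIs and 104 CPM (89.3 to 121), a reference-to-member ratio of 197 (34.9 to 7838). This row was concentrated in few barcodes. In control, clusters 14 and 15 held 92.6% of its UMIs in 270 barcodes, with 36.4% of the reference set and 0.506% of the block-rich set. In *Supt6*-KO, clusters 16 and 17 held 89.7% in 75 barcodes, with 4.40% of the reference and 0.0870% of the block-rich set. Outside those clusters control had 16 UMIs (10.98 CPM) in block-rich barcodes against 26 UMIs (71.6 CPM) in the reference, and *Supt6*-KO had 0 UMIs against 7 UMIs.

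R27208 had 17.8 CPM (11.6 to 26.1) against 399 (349 to 453) in control, 22.4-fold lower (14.9 to 35.0). In *Supt6*-KO it had 30.2 CPM (22.8 to 39.1) against 176 (156 to 198), 5.84-fold lower (4.38 to 7.91). The 2 clusters with the highest CPM of R27208 held 25.9% of its UMIs in control and 16.9% in *Supt6*-KO. These clusters held 50.5% of the control reference and 5.32% of the control block-rich set, and 22.6 and 2.18% in *Supt6*-KO. Outside them it had 8.56 against 24.8 CPM in control (12 and 7 UMIs) and 26.9 against 56.7 CPM in *Supt6*-KO (50 and 71 UMIs). The shallow reference stood above the reference of all depths for both lower rows. Over reference barcodes of all depths, the control library gave 36.7 CPM of R02281 and 30.9 CPM of R27208, and *Supt6*-KO gave 9.19 and 60.2 CPM. Against that reference weighted to the clusters of the block-rich barcodes, the control log2 ratios were 0.52 and 0.063, so neither row was lower there in control, and the *Supt6*-KO ratios were -1.43 and -0.38.

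**Figure D4:**
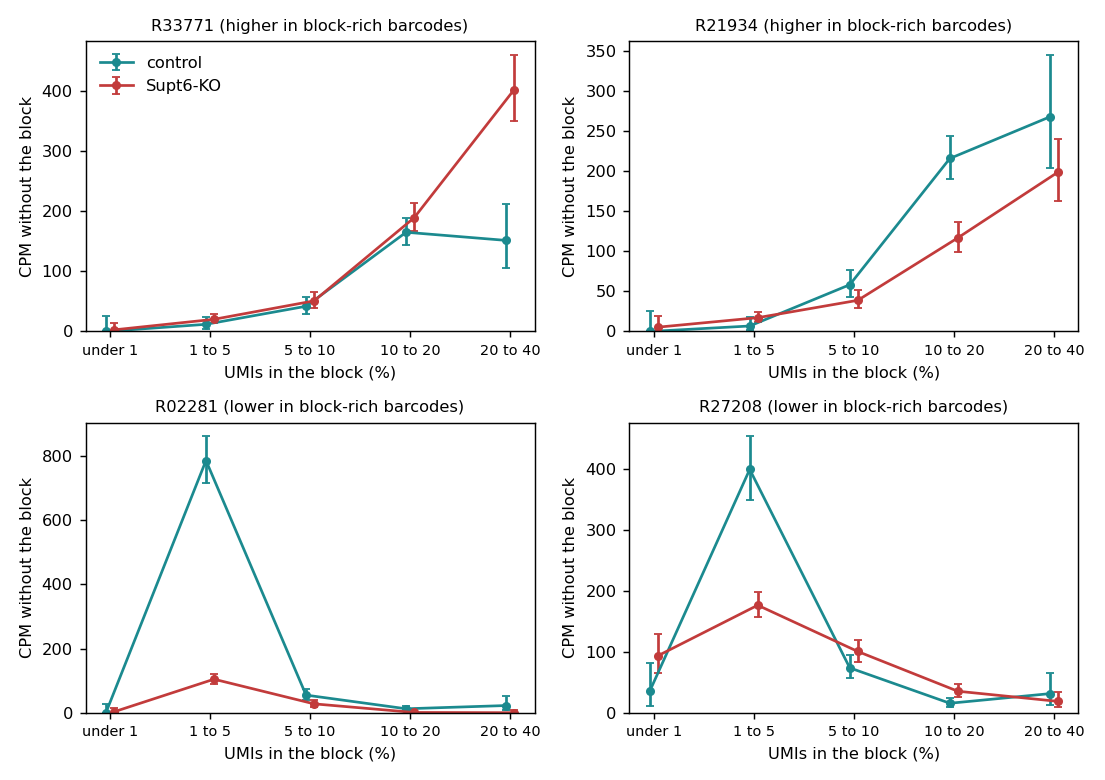
CPM without the block (vertical axis, with exact 95% Poisson intervals) of R33771, R21934, R02281 and R27208 over bins of block percent (horizontal axis), at 1000 to 4000 UMIs, in control and *Supt6*-KO. R33771 and R21934 are higher above 10% than at 1 to 5%, and R02281 and R27208 are highest at 1 to 5% in both libraries.

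The sets also differed in cluster makeup. Clustering on rows outside the block gave 17 clusters in control and 18 in *Supt6*-KO, and block-rich barcodes at all depths occurred in 17 of 17 and 17 of 18. In control, cluster 5 held 457 of the 790 block-rich barcodes (57.8%) and 1 of the 206 reference barcodes (0.485%). In *Supt6*-KO, clusters 8 and 10 held 750 of 1149 (65.3%) and 50 of 636 (7.86%). Control cluster 14 held 67 reference barcodes (32.5%) and 1 block-rich barcode. To match the makeup of the reference, 66.1% of the block-rich barcodes in control and 57.7% in *Supt6*-KO would have to change cluster. Since clusters were built from the same rows, these shares describe the sets and test nothing.

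**Figure D5:**
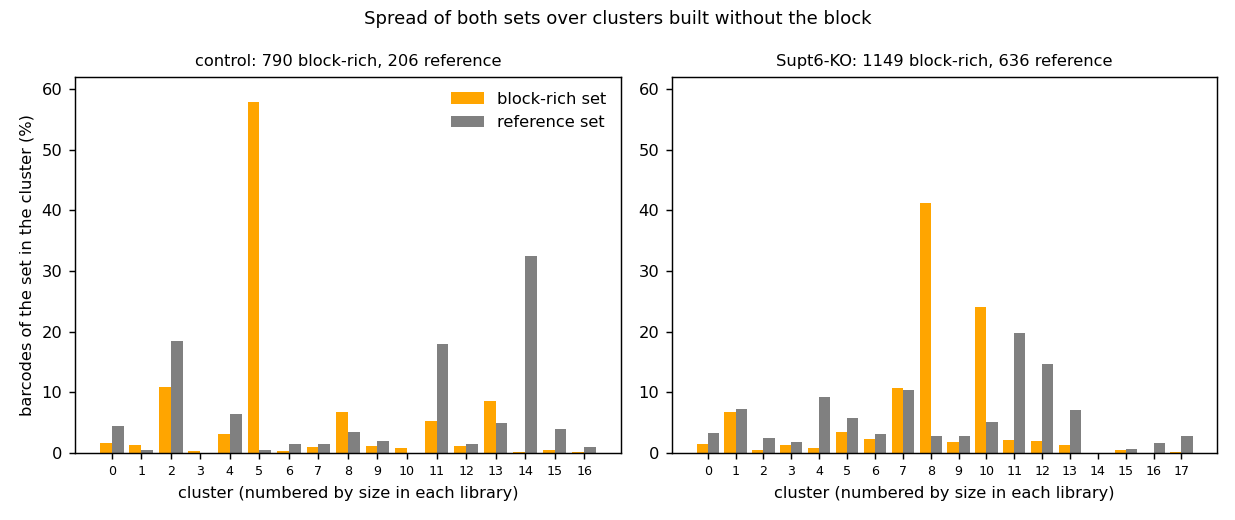
Share of the block-rich and of the reference set (bars from 0, in percent) in each cluster built on rows outside the block, in control and *Supt6*-KO. Block-rich barcodes concentrate in control cluster 5 (57.8%) and *Supt6*-KO clusters 8 and 10 (65.3% together), which hold 0.485% and 7.86% of the reference.

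Within a cluster that held both sets at depth, most shared rows kept their direction with smaller ratios. Control cluster 2 (86 block-rich and 38 reference barcodes) had 368 of the 456 shared higher rows above 0 and 184 of the 206 shared lower rows below 0. *Supt6*-KO cluster 1 (77 and 46 barcodes) had 420 and 191, and cluster 7 (123 and 66) had 422 and 196. Fewer were called at 2-fold inside these clusters, namely 107, 188 and 118 of the 456 higher and 74, 79 and 24 of the 206 lower rows. Among all rows tested inside them at 100 CPM or more, 553 of 2554, 729 of 2293 and 373 of 2271 were called higher. The lower calls among them were 294, 191 and 83. Median log2 ratios of the higher rows were 0.63, 1.04 and 0.79, and of the lower rows -0.84, -0.94 and -0.69. Of all rows tested there at 100 CPM or more, 60.5, 67.2 and 61.9% were above 0. These rows had been chosen in sets that include the same barcodes, so the counts are a description. With the all-depth reference weighted to the clusters, 324 of 5949 rows tested in both libraries were called higher in both and 46 lower. Of the 809 and 439 shared rows, 624 and 350 kept their sign in both libraries and 96 and 22 were called again. Over all rows tested in that setting the median log2 ratios were 0.27 in control and 0.30 in *Supt6*-KO. A sign above 0 was therefore the more common one for any row.

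Likeness between libraries was close for block-rich barcodes and for the reference at all depths, and lower for the shallow reference sets. Over 8016 rows, which are not independent replicates, the Pearson correlation of log2(CPM + 1) was 0.878 between the block-rich sets, 0.884 between the references at all depths and 0.696 between the reference sets of the window. Against its own reference, the block-rich set stood at 0.635 in control and 0.868 in *Supt6*-KO. The control reference stood at 0.736 against the control reference of all depths, whereas the *Supt6*-KO reference stood at 0.953. The sums compared differed in size. The references of the window held 586698 UMIs outside the block in control and 1628870 in *Supt6*-KO, and those of all depths 90688407 and 79400021. The block-rich sets held 1461305 and 1890320. How far the size of the sums set the correlations was not tested. Compared directly between libraries, 584 of 6882 rows were higher (8.49%) and 737 lower (10.7%) in *Supt6*-KO block-rich barcodes than in those of control. In the reference, 589 of 7285 were higher (8.09%) and 1551 lower (21.3%). The sets shared 241 higher rows, 41.3% of the block-rich and 40.9% of the reference list, and 285 lower rows, 38.7 and 18.4%. Whether the *Supt6*-KO difference depended on block percent was not tested.

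Barcodes that the minimum of 500 detected rows left out were more block-rich still. Of 368 such control barcodes 86.4% exceeded 10%, with a median block percent of 54.2%, and of 1142 in *Supt6*-KO 85.6% did, with a median of 45.3%. Outside the block they stood at a correlation of 0.782 with the block-rich set in control and 0.844 in *Supt6*-KO, at 0.672 and 0.923 with the reference of the window, and at 0.855 and 0.945 with the reference of all depths. Their sums were small, at 136491 UMIs outside the block in control and 472497 in *Supt6*-KO.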

How the data were processed

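The authors processed reads with Cell Ranger 7.1.0 (STAR, GRCm39) and deposited 1 filtered matrix of UMI counts per library, whole numbers with no normalization. The submitters' notes also name Seurat 4.1.1, whose output was not used here. The block percent, depth window and row rule were computed in Python 3.11.15 (numpy 2.4.6, scipy 1.17.1, pandas 2.3.3), with a pseudocount of 1 CPM, exact 95% intervals (Poisson, Clopper-Pearson binomial and conditional binomial) and, as an alternative, TMM factors from edgeR 4.0.16. Clusters were built per library from a shared-neighbour graph (scikit-learn 1.9.0) with leidenalg 0.10.2. No doublets were removed, and an alternative left out the 8% of barcodes with the highest Scrublet scores (scanpy 1.11.5). No test across libraries was run, since each group had 1 library. The rows given by number were the 2 higher and 2 lower rows with the largest smaller log2 ratio of the 2 libraries, among rows called the same way in both at 100 CPM or more. Scripts were tested on simulated data. The reference genome at hand is of another build and was not used, and no sequence is tied to a row. The sets and rules were chosen with earlier results of these data known. Alternatives with the reference at all depths, weighted to clusters or with a counting interval were chosen after seeing the data.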

Additional observations from a re-analysis of the deposited data

Results flagged for a closer look

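A small number of rows passed the size rule in opposite directions in the libraries. In block-rich barcodes, 23 rows were lower in control and higher in *Supt6*-KO, and 2 were higher in control and lower in *Supt6*-KO. At 100 CPM or more in the higher set of both libraries, the numbers were 7 and 1. The difference between the libraries was not tested, since each group had 1 library, and the number of opposite calls depended on the setting. Against 25 in all, the alternatives gave from 5 at 4000 to 16000 UMIs to 127 at 1000 to 2000 UMIs, with 126 at 1.5-fold, 97 at a minimum of 5 CPM, 64 with a reference of 1 to 3%, 59 at over 20% block, 11 with TMM factors and 7 with the reference at all depths.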

How the results depend on the processing

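No paired analysis was possible because there was a single control library and a single *Supt6*-KO library. With TMM factors, *Supt6*-KO calls were 834 higher and 1138 lower of 6780 rows tested, and shared calls 472 and 660 of 6308. At a minimum of 5 CPM, lower calls were 2793 in control, 1303 in *Supt6*-KO and 739 shared. That minimum tested 11559 rows in control, 10479 in *Supt6*-KO and 9917 in both, against 7562, 6770 and 6316 at 20 CPM. At 100 CPM, higher and lower calls were 825 and 591 in control, 811 and 297 in *Supt6*-KO and 456 and 206 shared. Only 2905, 2492 and 2180 rows were tested at 100 CPM, so these counts moved together with the number of rows tested. At 1.5-fold, higher calls were 2715 in control and 2757 in *Supt6*-KO, lower calls 1467 in *Supt6*-KO, and shared calls 1787 and 1032. At 4000 to 16000 UMIs, lower calls were 740 in control, 181 in *Supt6*-KO and 85 shared, and the control log2 ratios were 0.59 for R02281, -0.034 for R27208, 1.29 for R33771 and 2.36 for R21934. At that depth 6827 rows were tested in control, 6626 in *Supt6*-KO and 6012 in both. With the reference at all depths there were 944 lower calls in control, 2546 higher in *Supt6*-KO and 1686 shared higher. Rows tested were then 6783, 6505 and 6036, and 6730, 6513 and 5949 with the weighting to clusters. Weighted to clusters, there were 502 lower in control, 906 higher and 167 lower in *Supt6*-KO, and 324 and 46 shared, and the control log2 ratios of R02281 and R27208 were 0.52 and 0.063. At 1000 to 2000 UMIs the correlation between libraries was 0.361, and the control log2 ratios of R02281 and R27208 were -2.17 and -1.70. The top 10 rows took 6.12% of block-rich UMIs against 6.23% of the reference in control, and 9.85% against 9.92% in *Supt6*-KO. In block-rich barcodes the reference's 100 rows took 13.04 and 21.6%, and the 100 rows at over 20% block 17.2 and 22.8%. Detected-row ratios were 1.08 and 1.13 at 1000 UMIs, 0.751 and 0.775 without thinning, and 1.02 and 1.01 without rows of 1000 CPM. Thinning to 1000 UMIs left out 105 control and 202 *Supt6*-KO block-rich barcodes that fell short, against 1 and 2 reference barcodes. Block-rich barcodes numbered 591 and 645 at 1000 detected rows, 1246 and 2312 with no minimum, 205 and 461 over 20%, 1932 and 2993 over 5%, and 790 and 1149 in the window. Where a value moved, the cause was not tested. At 1000 to 2000 UMIs the control reference held 28 barcodes.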

Other observations

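Barcodes at the other end of the block percent differed in number between the libraries. Under 1% block there were 216 of 8717 control barcodes and 1485 of 11829 in *Supt6*-KO (12.6%), and in the window of 1000 to 4000 UMIs 64 and 159. The difference between the libraries was not tested.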
